A study of Mus musculus with 10 samples.

Results

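S100 proteins are small EF-hand calcium sensors of vertebrates. Most work as dimers: calcium binding exposes a surface that grips a target protein, and the members differ in their targets. S100a10 is the exception, since it has lost calcium binding and stays in the active form, joined to annexin A2 at the plasma membrane. The genes examined were S100a1, S100a4, S100a6, S100a8, S100a9, S100a10, S100a11 and S100a13, which were picked from the family with their response to EBIO in these data known. Every probe set annotated to a single one of these 8 genes was taken, which gave 10 of the 45101 probe sets on the arrays and covered 7 of the 8 genes. S100a11, a partner of annexin A1, had no probe set of its own. A probe set annotated to 3 genes, S100a11 among them, is described apart at the end. S100a10 had 3 probe sets and S100a1 had 2, and the brighter or brightest over all 10 arrays stood for the gene.

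The series used 10 Affymetrix arrays. They hold RNA of the CGR8 line, mouse embryonic stem (ES) cells from strain SV129, and of cells differentiated from it. EBIO, an opener of small- and intermediate-conductance calcium-activated potassium channels, was given to ES cells at 1 mM for 3 days (n = 3 arrays, passages 25, 26 and 27), against untreated ES cells of the same passages (n = 3). Differentiating cells spent 5 days as embryoid bodies and then 10 days with EBIO, at a dose the labels do not give (n = 2), against the same 5 and 10 days without it (n = 2). All levels are on the log2 scale of the authors' RMA values, so a difference of 1 is a doubling. The ES and the differentiated arrays had been normalized as separate sets, and their array medians lay 1.10 apart between the untreated groups. The series' title concerns the effect of such channels on heart cell formation and pacemaker-like cells. Each group came from 1 cell line, its arrays are called independent experiments in the design text, and the number of arrays limits the precision.

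The marker lists described the groups and could not check which arrays were treated. The 10 ES cell markers averaged 7.67 to 7.98 in EBIO-treated and 10.89 to 11.14 in untreated ES arrays. In untreated differentiated arrays, normalized apart, they averaged 6.18 to 6.27. The 10 cardiomyocyte markers averaged 12.76 to 12.80 in EBIO-treated and 8.64 to 8.80 in untreated differentiated arrays. The 12 macrophage markers averaged 4.39 to 4.53 in EBIO-treated and 10.42 to 10.71 in untreated differentiated arrays, and the 10 fibroblast markers 7.11 to 7.13 and 11.45. Arrays of 1 group correlated at 0.982 to 0.997 over all probe sets. The arrays measured mixed RNA, in which fewer cells of a type and less RNA per cell cannot be told apart.

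All 7 measured members lie on chromosome 3 in the RefSeq table (GRCm38.p6), 6 of them in the dense S100 gene cluster. Along it the order is S100a1, S100a13, S100a14, S100a16, S100a3, S100a4, S100a5, S100a6, S100a7a, S100a8 and S100a9. S100a11 and S100a10 sit next to each other further along, past 56 other protein-coding genes. RefSeq windows of 300 bases around the gene start, 250 before it and 50 after it, were given for 7 of the 8 members, with none for S100a10. The windows of S100a1 and S100a13 are shown because they face opposite ways and share 204 bases. Each is read 5′ to 3′ on its gene's own strand, and capitals mark the shared bases.
S100a1, chr3:90514281-90514580, minus strand: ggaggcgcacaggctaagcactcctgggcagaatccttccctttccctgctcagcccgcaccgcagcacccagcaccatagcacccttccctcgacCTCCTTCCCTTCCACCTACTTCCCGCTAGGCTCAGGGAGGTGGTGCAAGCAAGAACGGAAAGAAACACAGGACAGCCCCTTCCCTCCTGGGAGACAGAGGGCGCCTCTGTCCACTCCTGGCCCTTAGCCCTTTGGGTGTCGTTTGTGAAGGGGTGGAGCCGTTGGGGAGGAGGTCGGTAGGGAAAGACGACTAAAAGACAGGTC
S100a13, chr3:90514185-90514484, plus strand: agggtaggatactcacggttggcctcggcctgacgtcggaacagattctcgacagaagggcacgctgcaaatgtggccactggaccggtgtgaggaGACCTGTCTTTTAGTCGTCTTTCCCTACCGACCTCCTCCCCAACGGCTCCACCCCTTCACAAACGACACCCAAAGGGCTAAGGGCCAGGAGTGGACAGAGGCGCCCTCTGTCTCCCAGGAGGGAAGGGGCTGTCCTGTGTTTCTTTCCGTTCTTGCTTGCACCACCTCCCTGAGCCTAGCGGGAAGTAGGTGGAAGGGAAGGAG

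The windows of S100a4 and S100a6 are shown because these genes had the largest differences with EBIO in differentiated and in ES cells among the members. Capitals mark matches to 4 motifs searched on both strands: the TATA box TATAAA, the CCAAT box CCAAT, the GC box GGGCGG and the AP-1 site TGANTCA.
S100a4, chr3:90603520-90603819, plus strand: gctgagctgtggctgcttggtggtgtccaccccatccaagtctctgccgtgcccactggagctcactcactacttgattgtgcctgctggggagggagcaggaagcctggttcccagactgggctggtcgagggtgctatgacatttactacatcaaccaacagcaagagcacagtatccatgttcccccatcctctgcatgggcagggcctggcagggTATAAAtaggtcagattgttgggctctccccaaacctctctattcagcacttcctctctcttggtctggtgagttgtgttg
S100a6, chr3:90612644-90612943, plus strand: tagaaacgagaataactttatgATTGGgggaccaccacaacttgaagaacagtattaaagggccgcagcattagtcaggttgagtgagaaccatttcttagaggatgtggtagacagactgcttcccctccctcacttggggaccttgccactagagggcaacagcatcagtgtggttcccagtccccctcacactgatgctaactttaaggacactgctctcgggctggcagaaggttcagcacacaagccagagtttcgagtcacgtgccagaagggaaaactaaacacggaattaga

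The S100a4 window held a TATA box that began 31 bases before the start, and the S100a6 window held only an inverted CCAAT box. TATAAA was found in 3 of the 7 member windows, those of S100a4, S100a8 and S100a9, and in 13.6% of the 32851 windows of the table. CCAAT was found in 1 of 7 member windows and in 37.4% of all windows, GGGCGG in 2 of 7 and in 35.7%, and TGANTCA in 1 of 7 and in 7.8%. Neither the S100a1 nor the S100a13 window held any of the 4 motifs. A match describes the letters of the window and is not a measured site.

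In ES cells 3 days of EBIO went with much higher S100a6 and S100a10 and with lower S100a13 and S100a1. S100a6 was 13.7-fold and S100a10 3.72-fold higher, while S100a13 was 2.08-fold and S100a1 1.85-fold lower. S100a4, S100a8 and S100a9 stayed near or under the median of their arrays in both groups and were not tested. All 4 members that were bright enough to test passed limma's threshold (adjusted p under 0.05), as did 44.8% of the 12096 genes tested. In all 4 the EBIO and control arrays did not overlap, which held for 54.7% of the genes tested (27.9% higher and 26.8% lower). The members were chosen with these contrasts known, so nothing is read from that count, and their differences are given with standard errors and without p-values.

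**Figure D1:**
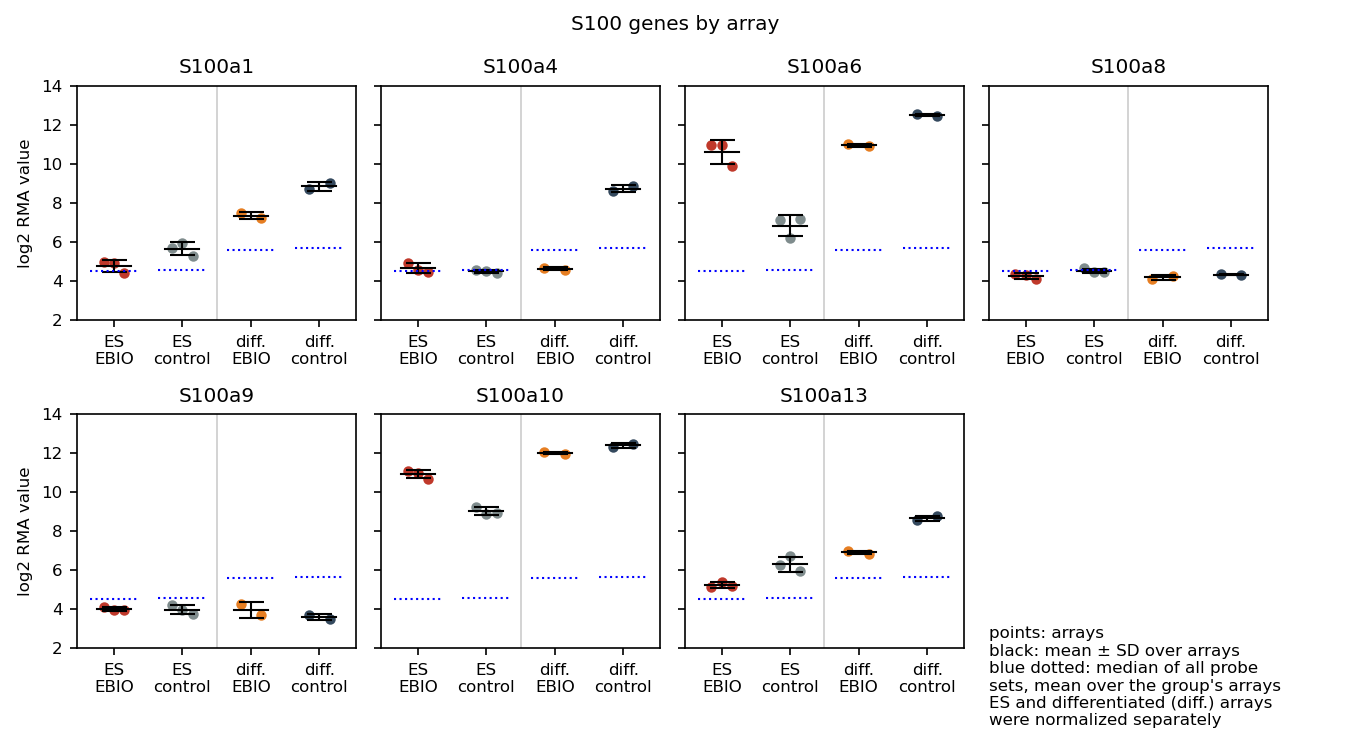
Log2 RMA value of each of the 7 measured S100 genes on each array (points), by group, with the mean and SD over arrays in black and the median of all probe sets, averaged over the group's arrays, as a blue dotted line. S100a6 and S100a10 lie higher with EBIO than in controls in ES cells and lower in differentiated cells, and S100a8 and S100a9 lie near or under the blue line in every group.

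S100a6, known as calcyclin, is a protein of growing cells that binds the adaptor Cacybp and several annexins. It measured 10.99, 10.95 and 9.92 with EBIO, against 7.13, 6.23 and 7.17 in untreated ES cells of passages 25, 26 and 27. The groups did not overlap: the lowest EBIO array, of passage 27, lay 2.75 above the highest control. The difference was 3.78 ± 0.34 (SE), and within passages it was 3.87, 4.72 and 2.75.

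S100a10, the light chain of the annexin A2 complex, measured 11.07, 10.997 and 10.68 with EBIO, against 9.24, 8.90 and 8.92 in untreated ES cells. The groups were 1.44 apart and the replicates of each lay close together. The difference was 1.89 ± 0.16 (SE). Its probe sets moved the same way: 1 further bright probe set differed by 1.64, and a dim one that lay under the array median in every control differed by 0.69.

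S100a13 takes part in the release of FGF1, a growth factor that leaves cells without a signal peptide. It measured 5.13, 5.41 and 5.20 with EBIO, against 6.25, 6.71 and 5.95 in untreated ES cells. All 3 EBIO arrays lay under all 3 controls, by a difference of -1.06 ± 0.20 (SE). S100a1, a regulator of calcium cycling in heart and skeletal muscle, measured 4.96, 4.95 and 4.42 with EBIO, against 5.72, 5.97 and 5.31 in controls, a difference of -0.89 ± 0.21 (SE). It was dim here: 2 of 3 EBIO arrays were above their array median, and the second S100a1 probe set lay under the median on all 6 ES arrays and differed by -0.20. With the mean of both probe sets the S100a1 difference was -0.55.

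S100a4, a protein of fibroblasts and migrating cells that binds non-muscle myosin, measured 4.93, 4.59 and 4.46 with EBIO, against 4.58, 4.52 and 4.39 in untreated ES cells. These ranges overlapped, and none of the 3 controls exceeded its array median. S100a8, which with S100a9 forms the calprotectin of neutrophils and monocytes, measured 4.36, 4.30 and 4.10 with EBIO, against 4.66, 4.47 and 4.44 in controls. S100a9 measured 4.13, 3.97 and 3.96 with EBIO, against 4.21, 3.96 and 3.75. Of the 11 neutrophil markers measured 3 exceeded the array median on each EBIO array and 2 or 3 on each control array.

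In differentiated cells 10 days of EBIO went with lower levels of all 5 members that could be tested. S100a4 was at least 17.1-fold lower, S100a13 3.38-fold, S100a6 2.92-fold, S100a1 2.84-fold and S100a10 1.31-fold. All 5 passed limma's threshold, where 32.6% of the 12330 genes tested were called lower and 66% were called in either direction. In all 5 the groups did not overlap, which held for 84.4% of the genes tested (43.4% higher and 41% lower). S100a10 was not called with 4 groups fitted together, which left 4 of 5. S100a4 entered the test through its control arrays alone, so it had to differ, and again nothing is read from the count. For other genes that entered through 1 group alone, values are likewise given without a p. S100a8 and S100a9 were under the median on all 4 arrays.

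S100a4 measured 4.68 and 4.59 with EBIO, against 8.62 and 8.85 in untreated differentiated cells. The groups were 3.93 apart, and both EBIO arrays lay under their array medians of 5.62 and 5.59, at the compressed low end of the scale. The difference of -4.10 ± 0.10 (SE) is therefore a lower bound. Markers of cell types that are known to make S100a4 moved with it. Of the 12 macrophage markers 1 was above the median on each EBIO array, against 12 on each control array, and 11 of the 12 entered the test through the controls alone. Among them C1qb, a complement gene, measured 4.09 ± 0.12 with EBIO and 12.04 ± 0.26 without (SD, n = 2 each). All 10 fibroblast markers were called lower, 2 of them entering through the controls alone, where 32.6% of all genes tested were called lower. Lum, the gene of the matrix proteoglycan lumican and 1 of these 2, measured 3.76 ± 0.17 with EBIO and 12.05 ± 0.19 without (SD, n = 2 each). The fall was not particular to these 2 lists. All 7 endothelial markers tested, 4 of them entering through the controls alone, and all 8 epithelial markers, 1 of them so, were also called lower. The part of these cell types in the S100a4 difference was not tested.

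S100a6 measured 11.02 and 10.91 with EBIO, against 12.54 and 12.48 in untreated differentiated cells. It stayed bright in both groups, which were 1.46 apart, and differed by -1.54 ± 0.08 (SE). S100a10 measured 12.05 and 11.97 with EBIO, against 12.31 and 12.48 in controls. These groups were only 0.26 apart, and the difference of -0.39 ± 0.09 (SE) is the smallest among the tested members. The probe sets of S100a10 disagreed here: the other bright one differed by -0.36, while the dim one, under the median on all 4 arrays, differed by 0.19.

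S100a13 measured 6.98 and 6.85 with EBIO, against 8.58 and 8.76 in untreated differentiated cells, a difference of -1.76 ± 0.09 (SE). Its neighbour S100a1 measured 7.49 and 7.22 with EBIO, against 8.70 and 9.02 in controls, a difference of -1.51 ± 0.14 (SE), and its second probe set differed by -1.25. The groups of both genes stood apart, and these 2 genes were lower with EBIO in both stages. S100a1 is best known from heart muscle. It was lower in the arrays in which all 10 cardiomyocyte markers rose, among them Nppa, the gene of atrial natriuretic peptide, at 13.07 ± 0.06 with EBIO and 6.005 ± 0.08 without (SD, n = 2 each, adjusted p = 1.52e-06, limma).

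S100a8 measured 4.10 and 4.27 with EBIO, against 4.35 and 4.30 in untreated differentiated cells, and S100a9 4.25 and 3.68 against 3.73 and 3.51. Both probe sets were thus dim also in the untreated cultures, in which all 12 macrophage markers exceeded the array median. Of the 11 neutrophil markers 3 or 4 exceeded it on each untreated differentiated array and 2 on each EBIO array. Of the 4 neutrophil markers tested 2 were called lower, both entering through the controls alone, and 2 were not called. The median difference over all 4 was -0.21. Mmp9, a matrix protease stored by neutrophils and also made by other cells, had the largest difference of the list, at 5.03 ± 0.26 with EBIO and 7.74 ± 0.17 without (SD, n = 2 each). Both of its EBIO arrays lay under their array medians, so this difference is a lower bound.

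The direction of the EBIO difference thus turned between the stages for S100a6 and S100a10. For S100a6 it was -1.54 in differentiated and 3.78 in ES cells, and for S100a10 -0.39 and 1.89. In both genes each EBIO array lay above every control array in ES cells and under every control array in differentiated cells. The dim S100a10 probe set did not turn, with a difference of 0.19 in differentiated cells. Of all genes tested, 27.9% stood apart and higher in ES cells and 41% apart and lower in differentiated cells. The share that did both was not computed, so nothing is read from these 2 genes doing so. No p-value is given for the change between stages in members, since both contrasts were in view when they were picked. With 4 groups fitted together S100a10 was not called in differentiated cells. Dose and duration of EBIO also differed or were not stated, so stage and treatment schedule cannot be told apart.

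**Figure D2:**
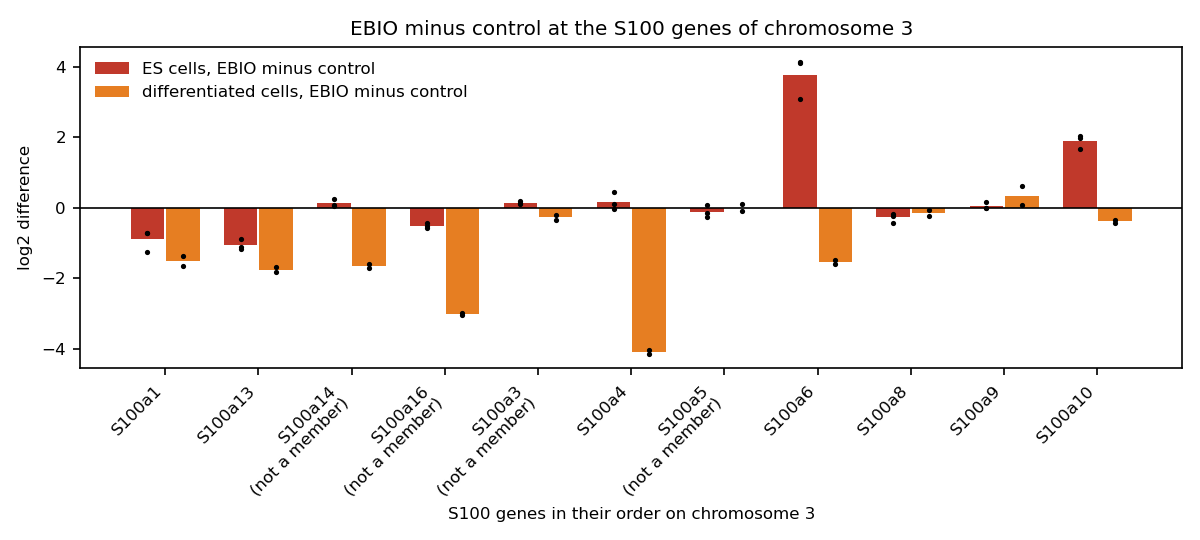
EBIO minus control (log2) in ES cells and in differentiated cells for the 11 S100 genes of chromosome 3 with a probe set of their own, in chromosome order. Bars are differences of group means and dots are single EBIO arrays against the control mean. S100a1, S100a13 and S100a16 lie under 0 in both stages, as do the dim S100a5 and S100a8 with shorter bars, and the tall bars above 0 are S100a6 and S100a10 in ES cells.

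Across stages, untreated differentiated cells had higher values than untreated ES cells for 5 of the 7 measured members. S100a6 averaged 12.51 ± 0.05 in untreated differentiated cells (SD, n = 2) and 6.84 ± 0.53 in untreated ES cells (SD, n = 3), a difference of 5.67, or 4.36 after all 10 arrays were forced to 1 distribution. S100a4 differed by 4.24 and 2.94 in the same way, S100a10 by 3.37 and 2.20, S100a1 by 3.19 and 1.62, and S100a13 by 2.37 and 0.73. In these 5 genes the lowest differentiated control lay above the highest ES control on either scale. The share of all genes with such a gap was not computed, so nothing is read from the count. S100a8 differed by -0.20 and -0.85 and S100a9 by -0.35 and -0.57, both at dim levels. Since the sets were normalized separately these differences carry no test. With EBIO, S100a6 in ES cells (9.92 to 10.99) overlapped the range of EBIO-treated differentiated cells (10.91 to 11.02) on the deposited scale, below untreated differentiated cells (12.48 to 12.54). The array medians were 4.52 to 4.55 in EBIO-treated ES cells and 5.59 to 5.62 in EBIO-treated differentiated cells. This overlap is therefore not read as equal levels.

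Other genes of the family were examined beside the members. Of 8 further S100 genes listed, 6 had a probe set of their own and 2 were bright enough to test in each stage. In ES cells S100a16 fell by 0.51 ± 0.14 (SE, adjusted p = 0.0164, limma), and S100b, best known from glia, measured 4.47 ± 0.24 with EBIO and 4.57 ± 0.33 in controls (SD, n = 3 each, adjusted p = 0.712, limma). S100a16 lost its call when EBIO array 1 or EBIO array 2 of the ES cells was left out (-0.51 and -0.48, adjusted p = 0.053 and 0.0564, limma). In differentiated cells S100a16 fell much further, measuring 6.73 and 6.67 with EBIO against 9.63 and 9.82 in controls, 8.15-fold (adjusted p = 4.83e-06, limma). Its second probe set measured 4.71 and 4.63 with EBIO, under the array medians, against 8.80 and 8.53.

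S100a14, an epithelial member next to S100a16, measured 4.80 and 4.70 with EBIO against 6.96 and 5.85 in untreated differentiated cells, a difference of -1.65 ± 0.34 (SE). Without control array 1 the difference was -1.09. Both EBIO arrays were under their array median, so this is a lower bound, and the gene entered the test through its controls alone. All 8 epithelial markers were called lower in differentiated cells, 1 of them entering through the controls alone, with Cdh1, the gene of E-cadherin, at 5.99 ± 0.16 with EBIO and 9.45 ± 0.11 without (SD, n = 2 each, adjusted p = 5.1e-06, limma). Their part in the S100a14 difference was not tested. The difference between the stages was -2.52 ± 0.19 for S100a16 (SE, adjusted p = 1.47e-06, limma), where 45.5% of 13706 genes were called.

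S100a3, a hair follicle protein, and S100a5 were under the array median on all 10 arrays, at 3.35 to 4.82. S100g, the calbindin of intestinal calcium uptake, was also under it throughout, at 4.29 and 3.58 with EBIO against 4.79 and 5.66 in untreated differentiated cells, and was not tested. S100a7a and S100z had no probe set of their own and are named only. Of 7 genes of the fused S100 type, large epidermal proteins that begin with an S100 domain, 5 were measured and 1 was tested, in differentiated cells. That gene, Tchh of hair follicle trichohyalin, measured 5.15 ± 0.22 with EBIO, under the array medians, and 6.55 ± 0.30 without (SD, n = 2 each), and entered the test through its controls alone. It was named after its value was seen.

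Targets and receptors of S100 proteins formed a list of 25 genes, of which 23 were measured. In ES cells 8 of 20 tested were called higher and 2 lower, against 23.5% and 21.2% of all genes tested, with a median difference of 0.01 in the list and -0.04 over all genes. In differentiated cells 10 of 21 were called higher and 8 lower, against 33.3% and 32.6%, with medians of 0.21 and 0.02. Of these, 1 of the 8 that were called higher in ES cells and 2 of the 8 called lower in differentiated cells entered through 1 group alone.

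Anxa2, whose protein binds S100a10, rose in ES cells: it measured 12.40, 12.13 and 11.96 with EBIO, against 7.43, 6.49 and 7.42 in controls, a difference of 5.05 ± 0.25 (SE, adjusted p = 2.31e-06, limma). In differentiated cells it fell by 0.52 ± 0.07, measuring 12.32 and 12.30 with EBIO against 12.83 and 12.83 in controls (adjusted p = 0.00101, limma). Anxa2 and S100a10 thus had the same signs in both stages. With the mean of its probe sets the Anxa2 difference in ES cells was 1.81, and with all 4 groups fitted together the fall in differentiated cells was not called (adjusted p = 0.159, limma).

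Ahnak, a giant scaffold protein held by the S100a10 and annexin A2 complex, rose in ES cells by 3.01 ± 0.25 (SE, adjusted p = 2.8e-05, limma) and in differentiated cells by 1.09 ± 0.08 (adjusted p = 9.4e-05). With the mean of its probe sets these rises were 0.75 and 0.74. Plat, the gene of tissue plasminogen activator, which binds S100a10 at the cell surface, measured 7.02 ± 0.29 with EBIO against 4.12 ± 0.18 in untreated ES cells (SD, n = 3 each), a difference of 2.90 ± 0.17 (SE). The controls were under their array medians, so the gene entered the test through its EBIO arrays alone and the difference is a lower bound. With the mean of the probe sets it was 1.45. In differentiated cells Plat differed by 0.21 (adjusted p = 0.0576, limma, not called; with the mean of its probe sets 0.22, adjusted p = 0.0237). Plgrkt, a plasminogen receptor gene, differed by 0.38 in ES cells (adjusted p = 0.107, limma; 0.0256 with the replicate number as a block) and fell by 1.33 ± 0.13 in differentiated cells (adjusted p = 0.000391).

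Anxa1, the annexin bound by S100a11, rose in ES cells, with 8.82, 8.27 and 8.41 under EBIO against 6.88, 5.71 and 6.55 in controls (2.11 ± 0.29, SE, adjusted p = 0.000426, limma). In differentiated cells it fell, with 10.12 and 10.19 under EBIO against 12.97 and 12.99 in controls (-2.82 ± 0.07, adjusted p = 2.79e-06). Anxa5 did likewise, by 2.01 ± 0.17 in ES cells (SE, adjusted p = 3.13e-05, limma) and -1.32 ± 0.09 in differentiated cells (adjusted p = 8.82e-05). Anxa6, a partner of S100a6, rose in both stages, by 1.65 ± 0.15 in ES cells (SE, adjusted p = 4.39e-05, limma; 1.08 with the mean of its probe sets) and 1.06 ± 0.07 in differentiated cells (adjusted p = 8.75e-05). Cacybp, the S100a6-binding adaptor of a ubiquitin ligase, fell by 0.68 ± 0.13 in ES cells (SE, adjusted p = 0.00279, limma) and rose by 0.40 ± 0.07 in differentiated cells (adjusted p = 0.00314). Its structural relative Sugt1 fell by 0.51 ± 0.17 in ES cells (SE, adjusted p = 0.0364, limma), a call lost when any of 5 of the 6 arrays was left out, with differences of -0.66 to -0.39 over the 6 fits, and with the mean of the probe sets (-0.46, adjusted p = 0.0546).

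**Figure D3:**
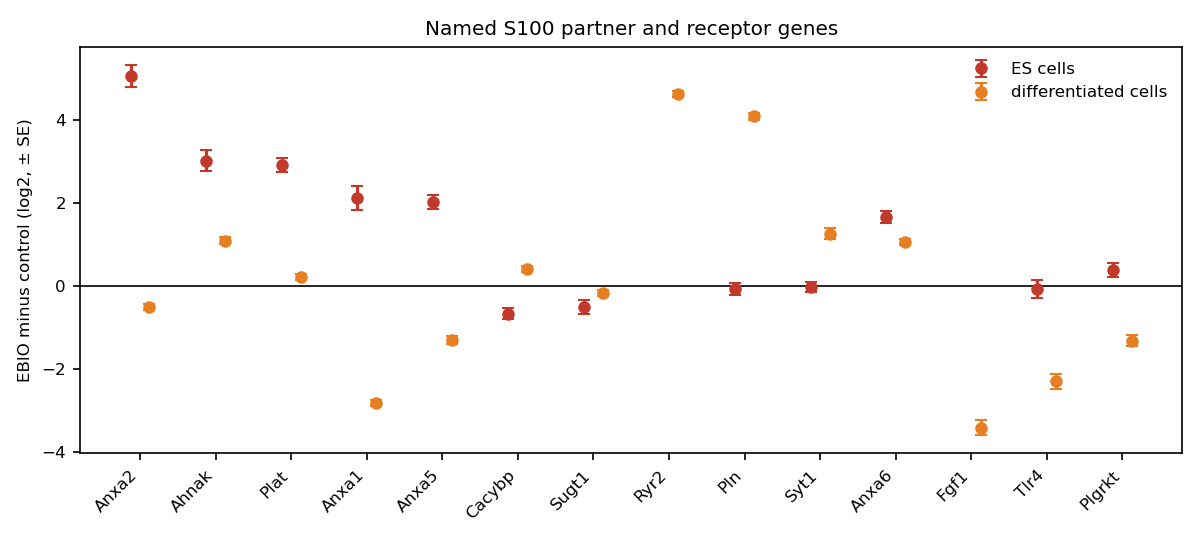
EBIO minus control (log2, ± SE from limma) for the 14 named S100 partner and receptor genes in ES cells and in differentiated cells; a gene too dim to test in a stage has no point there. Anxa2 at 5.05 in ES cells and Ryr2 at 4.62 in differentiated cells are the highest points, and Fgf1 at -3.42 in differentiated cells is the lowest.

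Heart targets of S100a1 were higher with EBIO in differentiated cells, where S100a1 itself was lower. Ryr2 is also 1 of the 10 cardiomyocyte markers, all of which rose in the same arrays. Ryr2, the cardiac calcium release channel, measured 10.45 and 10.49 with EBIO against 5.88 and 5.80 in controls (4.62 ± 0.07, SE, adjusted p = 1.52e-06, limma). Pln, the phospholamban that restrains the calcium pump, measured 11.71 and 11.87 with EBIO against 7.68 and 7.74 in controls (4.08 ± 0.08, adjusted p = 1.94e-06). Atp2a2, the gene of the pump, rose far less, by 0.59 ± 0.09 (SE, adjusted p = 0.00174, limma), and was named after its value was seen. Ryr1 was too dim to test in either stage. S100a1 differed by -1.51 in the same arrays, and the part of the cardiomyocyte rise was not tested. In ES cells Pln differed by -0.08 (adjusted p = 0.688, not called) and Ryr2 was too dim to test.

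S100a13 is known to join FGF1 and synaptotagmin 1 in the release complex. In differentiated cells Fgf1 itself was lower without overlap, measuring 3.995 and 4.45 with EBIO against 7.50 and 7.78 in controls (-3.42 ± 0.17, SE). Both EBIO arrays lay under their medians, so this is a lower bound, and Fgf1 entered the test through its controls alone. Syt1, the synaptotagmin of the same release complex, rose by 1.25 ± 0.13 (SE, adjusted p = 0.000431, limma). Tlr4, a receptor for the S100a8 and S100a9 complex, measured 4.27 and 4.03 with EBIO, under the array medians, against 6.21 and 6.70 in controls, and it too entered the test through its controls alone. Tlr4 is expressed by macrophages, whose markers were lower in the same arrays, and their part was not tested.

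**Figure D4:**
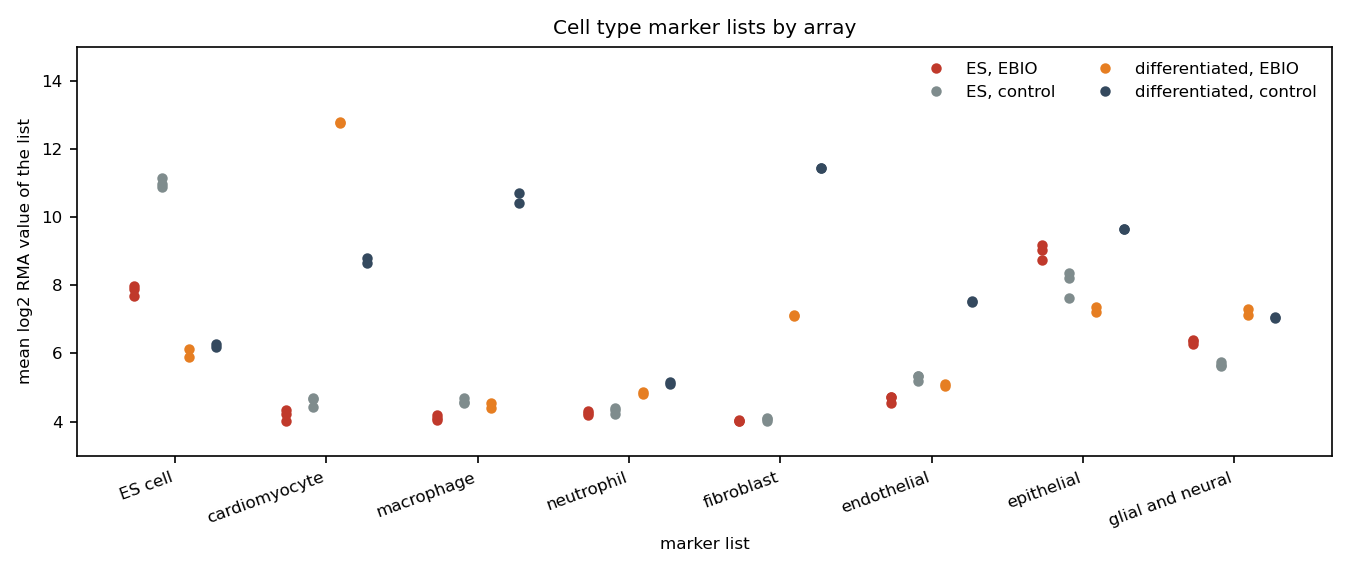
Mean log2 RMA value of each cell type marker list on each array (points), coloured by group; ES and differentiated arrays were normalized separately. Macrophage markers in EBIO-treated differentiated arrays lie at 4.39 to 4.53 and in untreated ones at 10.42 to 10.71, while cardiomyocyte markers lie at 12.76 to 12.80 and at 8.64 to 8.80.

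Genes with the most similar profile were found for the 5 members tested in at least 1 stage, by the root mean square (RMS) difference over the 10 arrays after centring each gene within each set. This is a description over few arrays, most of it set by the 2 EBIO differences. Nearest to S100a6 were Podxl, the gene of podocalyxin (RMS 0.25), and Anxa3 (RMS 0.30), which differed by 3.70 and 4.17 in ES cells and by -1.40 and -1.13 in differentiated cells. Nearest to S100a10 were Nxn and the AP-1 gene Junb (RMS 0.12 each). S100a4 was closest to Igfbp7 (RMS 0.12) and Tgfb3 (RMS 0.13), which differed by -4.42 and -3.89 in differentiated cells and by 0.22 and -0.04 in ES cells. S100a13 was closest to G0s2 (RMS 0.14) and Trim47 (RMS 0.15), and S100a1 to Sat1 (RMS 0.12) and Dcxr (RMS 0.15).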

How the data were processed

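Total RNA of 10 samples was labelled with biotin and hybridised to Affymetrix arrays, per the labels' protocols. The deposited values are log2 expression values that the authors made with RMA, per the submitters' processing notes; versions are not given in the sources used here. From the values, the 6 ES and the 4 differentiated arrays were normalized as separate sets: quantiles of any pair differed on average by at most 0.0931 and 0.0497 within the sets and by at least 0.910 between them. Of 45101 probe sets, 34958 had 1 gene symbol (18193 genes, symbols updated through RefSeq gene IDs), 932 had several and 9211 none; 64 controls were left out. A gene was represented by its brightest probe set and tested if it exceeded the median of an array on 3 or more ES arrays, or 2 or more differentiated arrays.

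Differences were tested with lmFit and eBayes of limma 3.58.1 (R 4.3.3), each EBIO comparison on its own arrays and the difference between stages on all 4 groups, with Benjamini-Hochberg adjustment over all genes tested, and were tested on simulated data. The members, the lists and the rule for named genes were chosen with earlier results of these data known. The rule named all members, all other S100 genes, the 5 partner genes with the largest called rise and fall per stage, the 2 markers per list with the largest difference per stage (those that bear on a member are given) and the 2 nearest genes per member. EBIO and control ES arrays of equal number share a passage, so the labels pair them. After subtracting group means these pairs correlated at 0.33, 0.22 and 0.60, but EBIO array 2 correlated at 0.24 with control array 1. The unpaired fit was kept as planned. Alternatives were other filters, probe set means, joint fits, an intensity trend, quantile normalization of all arrays, a replicate block and leaving out each array.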

Additional observations from a re-analysis of the deposited data

Results flagged for a closer look

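The EBIO effect differed between the stages for these genes; each value is the effect in differentiated cells minus that in ES cells, in log2 units. S100a6 (-5.32) and S100a10 (-2.28) are listed because every EBIO array lay above every control in ES cells and under every control in differentiated cells. The share of all genes that turned in this way was not computed. No p-value is given for these members, which were picked with both contrasts known. Among the named partner genes the limma test of the difference passed for Anxa2 (-5.57, adjusted p = 3.97e-07), Anxa1 (-4.94, adjusted p = 2.49e-06) and Anxa5 (-3.33, adjusted p = 8.91e-07), each of which rose in ES cells and fell in differentiated cells. It also passed for Ahnak (-1.93) and Anxa6 (-0.59, adjusted p = 0.0311), whose differences were positive in both stages. Ahnak (-0.01) and Anxa6 (-0.33) were not called with the mean of their probe sets. The Anxa6 call was lost in most fits that left out an array, with differences from -0.71 to -0.46. Plat (-2.69) also had positive differences in both stages, but it entered the ES test through its EBIO arrays alone. Nothing is read from its test of the difference between stages. Cacybp (1.08) fell in ES cells and rose in differentiated cells. Plgrkt (-1.71) fell in differentiated cells, and Ryr2 (5.20), Pln (4.16) and Syt1 (1.28) rose there. Ryr2 was too dim to test in ES cells, so the ES part of its value rests on dim levels. Fgf1 (-2.85) and Tlr4 (-2.23) were lower in differentiated cells. Both had entered that stage's test through its controls alone, so nothing is read from their tests.

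Outside the comparisons, the probe set annotated jointly to S100a11, S100a11-ps and Gm12854 measured 12.23, 11.94 and 11.77 in EBIO-treated ES cells, against 10.23, 9.92 and 9.90 in untreated ones, a difference of 1.96. In differentiated cells it measured 12.90 and 12.90 with EBIO, against 13.04 and 13.10 without. The signal cannot be assigned to 1 of these genes.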

How the results depend on the processing

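The count of members past the threshold in ES cells was 2 in place of 4 with the filter at the 75th percentile, since S100a1 and S100a13 were then too dim to be tested. All other counts of calls (over all genes, members, and other S100 and partner genes) stayed within 1.5 times their value under every alternative run. In differentiated cells S100a10 was not called with 4 groups fitted together, which left 4 of 5 members. Of the single genes, only values that were never called changed sign. S100b in ES cells ranged from -0.262 to 0.0681 when an array was left out, Tlr4 from -0.283 to 0.142 and Syt1 from -0.0763 to 0.0252; Syt1 was 0.0143 after quantile normalization of all 10 arrays. Sugt1 in differentiated cells was 0.16 with the mean of its probe sets. With the replicate number as a block 6474 genes were called in ES cells and 5413 without it; it changed the call of Plgrkt and no other call among the genes named from the S100 lists. In differentiated cells the numbers only name the arrays: same-numbered arrays' deviations correlated at -0.11, the block gave 7493 calls against 8132 and the crossed pairing, chosen after seeing the data, 8115. Leaving out an array of a pair assumes that the lone array varies like the other group. Low signal limits S100a8 and S100a9 in both stages, S100a1 and S100a4 in ES cells, and S100a4 in EBIO-treated differentiated cells. The authors' RMA values rest on 2 or 3 arrays a group.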
